A study of Mus musculus with 10 samples.

Results

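The Hedgehog pathway genes Shh, Gas1, Boc, Smo, Gli2, Gli3, Ptch1, Gli1 and Hhip were followed in mouse embryos at embryonic day 12.5, in tissue dissected from around the developing ear. Each was read from the probe set that carries its symbol in the platform annotation, with the brightest taken where a gene has several. All 9 members were measured, out of 19938 genes on the array, and each had 1 probe set. This periotic tissue joins the otic vesicle, an epithelial pouch from which the inner ear forms, with surrounding mesenchyme. Mutants and controls overlapped for every member, and 0 of the 9 passed the threshold over all genes.

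Total RNA (300 ng) from each of 5 mutant and 5 control embryos went on its own array of the type Affymetrix Mouse Gene ST 1.0, after left and right tissue of that embryo had been pooled. The mutants were conditional knockouts of Tbx1, a T-box transcription factor, made with T-Cre. The controls were T-Cre conditional heterozygotes of Tbx1, so both groups carry T-Cre and neither is wild type. T-Cre acts in the early mesoderm, and the otic epithelium is therefore outside the cells that it targets. The labels call the embryos biological replicates.

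In the Hedgehog pathway a secreted ligand such as Shh binds the receptor Ptch1 and so releases Smo, a membrane protein that Ptch1 otherwise holds inactive. Smo acts through the primary cilium on the zinc finger factors Gli2 and Gli3, and these switch on target genes, among which Ptch1, Gli1 and Hhip serve in most tissues as readouts of the signal. In the ear, Shh from the notochord and floor plate patterns the ventral otic vesicle, and the mesenchyme around the vesicle responds to it as the cartilage capsule forms. In a mixed tissue such as this, fewer cells of a type and less RNA per cell cannot be told apart.

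The arrays were alike in scale, with median log2 signals from 6.19 to 6.27. Tbx1 (probe set 10438347) had a log2 signal of 7.83 ± 0.36 in the mutants and 8.71 ± 0.31 in the controls (SD, n = 5 each), with an exact permutation p of 0.0159 and a limma adjusted p of 0.452. The arrays numbered 1 to 3 and those numbered 4 and 5 in the labels stood apart in both groups for Fos, an immediate early gene, which read 8.82 to 9.08 in the former and 5.49 to 5.91 in the latter. What arrays of 1 number have in common is not given in the labels, so differences of several genes and lists are also given within each of these sets of arrays. Mutant 5 had the highest mean of the hindbrain and neural tube markers and the lowest of the mesenchyme markers. Of the tissue's own markers, 17 of 17 otic epithelium genes and 14 of 14 periotic mesenchyme genes lay above background on all 10 arrays. Background here is the reading of 3 Y-linked genes in the female embryos, which reached 4.36. As probe sets differ in brightness, a reading above it does not by itself show that a gene is expressed.

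All 9 Hedgehog members lay above that background on all 10 arrays, with log2 signals between 6.24 and 10.59. The same held for 14 of 14 measured genes of the ventral neural tube and floor plate and for 10 of 10 macrophage markers. Clearing this background therefore did not set the members apart. The signals of different probe sets are not set against each other, because a probe set's brightness depends on its own probes. Mutant minus control differences were fitted with limma over all 21789 probe sets that carry 1 gene symbol, with Benjamini-Hochberg adjustment and a threshold of 0.05. Of all genes, 0.0100% passed, which is 2 genes, and 0 of the 9 members did. At an unadjusted limma p under 0.05, 7.82% of all genes passed and 1 member did. That member, Boc, read lower in the mutants, as did 3.11% of all genes at that level. The groups did not overlap for 1.83% of all genes and for 0 of the members.

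**Figure D1:**
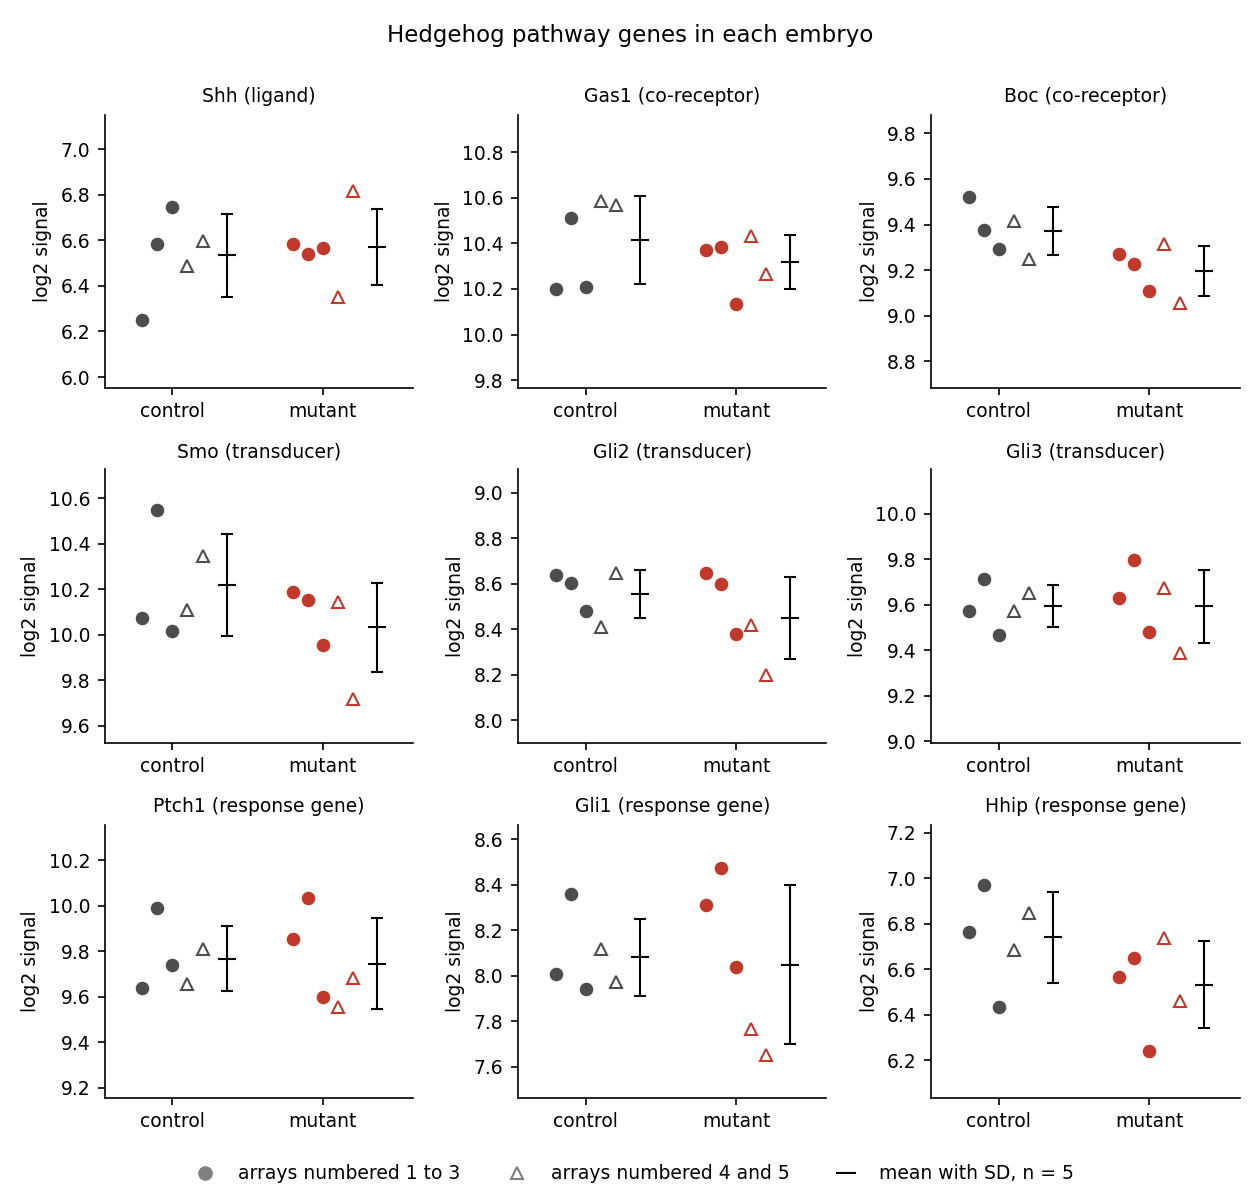
Log2 signal of the 9 Hedgehog genes in each embryo (vertical axis, the same span of 1.2 in each panel), with controls in grey and mutants in red, circles for arrays numbered 1 to 3, triangles for arrays numbered 4 and 5, and the group mean with SD (n = 5) beside the points. The groups overlap in all 9 panels, and for Boc 3 of the 5 mutants lie below the lowest control.

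Promoter sequence was at hand for 6 of the 9 members in the RefSeq table of GRCm38.p6, which gives 300 bases around a gene's start. The GLI motif GACCACCCA, searched on both strands (TGGGTGGTC on the other), lay in 0 of these 6 windows and in 0.253% of the 32851 windows of the table. The 6 windows were rich in G and C, at 62.3% to 76.3% beside a median of 52.7% over the table, and held 17 to 47 CpG dinucleotides beside a median of 7. The bases before the outermost start are printed for Hhip (chr8:80058061-80058258, minus strand) and Smo (chr6:29735247-29735496, plus strand), the members with the lowest mutant minus control differences, with CpG in capitals.
Hhip: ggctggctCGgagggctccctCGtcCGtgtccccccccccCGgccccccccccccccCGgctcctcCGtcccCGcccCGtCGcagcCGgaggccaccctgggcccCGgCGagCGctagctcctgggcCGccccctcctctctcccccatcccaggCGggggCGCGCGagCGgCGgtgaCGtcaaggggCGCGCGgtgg
Smo: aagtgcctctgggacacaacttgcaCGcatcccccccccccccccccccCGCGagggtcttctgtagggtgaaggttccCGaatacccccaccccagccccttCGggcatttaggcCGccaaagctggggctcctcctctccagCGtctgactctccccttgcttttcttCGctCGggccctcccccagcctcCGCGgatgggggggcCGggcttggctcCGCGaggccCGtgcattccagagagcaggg
Hhip held 24 CpG in 198 bases and Smo 15 in 250 bases. No match says only that these letters are not in this window.

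The ligand Shh differed between groups by less than the spread among arrays. Shh (probe set 10528872), the secreted signal itself, read 6.25, 6.59, 6.75, 6.49 and 6.60 in controls 1 to 5 and 6.59, 6.54, 6.57, 6.35 and 6.82 in mutants 1 to 5. The lowest array was control 1 and the highest mutant 5, with the other 8 between them. Mutants minus controls gave a log2 difference of 0.04 (SE 0.10), with a 95% interval from -0.19 to 0.26. The limma adjusted p was 0.943 and the exact two-sided permutation p was 0.714. On the signal scale, the interval runs from 87.8% to 120.1% of the control level.

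The co-receptors Gas1 and Boc, cell surface proteins that bind Shh and help it reach Ptch1, both had mutant means below the control means. For Boc (probe set 10439612) controls 1 to 5 read 9.52, 9.38, 9.29, 9.42 and 9.25, and mutants 1 to 5 read 9.27, 9.23, 9.11, 9.31 and 9.06. The mutant was lower than the control of the same number in 5 of 5 cases, and 3 mutants lay below the lowest control, so the groups overlapped only in part. The log2 difference of Boc was -0.18 (SE 0.07), with an interval of -0.33 to -0.02, or 88.6% of the control level. The exact permutation p was 0.0397, where 0.00794 is the smallest that 5 against 5 arrays can give. Adjusted over all probe sets, its limma p was 0.586. In a fit that blocks on array number, the adjusted limma p was 0.400, so Boc missed the threshold in both.

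Gas1 (probe set 10409833), a protein anchored to the outer membrane face, read 10.20, 10.51, 10.21, 10.59 and 10.57 in controls 1 to 5. Mutants 1 to 5 read 10.37, 10.38, 10.14, 10.43 and 10.26. Controls 1 and 3 were low and the other controls high, while mutant 3 lay below all controls and the remaining mutants lay between the low and high controls. The log2 difference of Gas1 was -0.10 (interval -0.29 to 0.10, limma adjusted p = 0.788, exact permutation p = 0.365). Arrays numbered 1 to 3 gave -0.01 for Gas1 and arrays numbered 4 and 5 gave -0.23.

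The transducers Smo, Gli2 and Gli3 relay the signal from membrane to nucleus. Smo (probe set 10536917) read 10.07, 10.55, 10.02, 10.11 and 10.35 in controls 1 to 5 and 10.19, 10.15, 9.96, 10.14 and 9.72 in mutants 1 to 5. Control 2 was the highest array and mutant 5 the lowest. The log2 difference of Smo was -0.19 with a standard error of 0.11 (interval -0.43 to 0.06, limma adjusted p = 0.687, exact permutation p = 0.230). It was -0.10 without control 2 and -0.11 without mutant 5, so each of these arrays held a large part of the difference. For Smo, arrays numbered 1 to 3 gave -0.11 and arrays numbered 4 and 5 gave -0.30.

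Gli2, the main activator among the Gli factors, and Gli3, which acts mostly as a repressor in the absence of ligand, both overlapped between the groups. Gli2 (probe set 10357137) read 8.64, 8.60, 8.48, 8.41 and 8.65 in controls 1 to 5 and 8.65, 8.60, 8.38, 8.42 and 8.20 in mutants 1 to 5. Only mutants 3 and 5 lay below the lowest control. The log2 difference of Gli2 was -0.11 (interval -0.30 to 0.08, limma adjusted p = 0.761), and -0.05 without mutant 5. For Gli2, arrays numbered 1 to 3 gave -0.03 and arrays numbered 4 and 5 gave -0.22. For Gli3 (probe set 10403727) the controls lay between 9.47 and 9.71 and the mutants between 9.39 and 9.80. The mutant range enclosed the control range, and the log2 difference of Gli3 was -0.00097 (interval -0.17 to 0.17, limma adjusted p = 0.999). It was 0.05 within the arrays numbered 1 to 3 and -0.08 within those numbered 4 and 5.

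The response genes all had mutant means below the control means, by unlike amounts, and 0 of the 3 passed the threshold. Ptch1 (probe set 10410039), receptor and target at once, read 9.64, 9.99, 9.74, 9.66 and 9.81 in controls 1 to 5 and 9.86, 10.04, 9.60, 9.55 and 9.68 in mutants 1 to 5. Mutants held both the highest reading and the 2 lowest. For Ptch1 the log2 difference came to -0.02 (SE 0.10, interval -0.23 to 0.19), which is 85.3% to 113.8% of the control level. The limma adjusted p of Ptch1 was 0.970 and its exact permutation p 0.841. Its difference was 0.04 within the arrays numbered 1 to 3 and -0.12 within those numbered 4 and 5.

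Gli1 (probe set 10373179), a Gli factor that is itself switched on by the signal, varied most among the mutants. Controls 1 to 5 read 8.01, 8.36, 7.94, 8.12 and 7.97, and mutants 1 to 5 read 8.31, 8.47, 8.04, 7.76 and 7.65. Mutants 1 to 3 lay at or above the middle of the controls, while mutants 4 and 5 lay below all of them. The SD of Gli1 was 0.35 in the mutants and 0.17 in the controls. Over all 10 arrays the log2 difference was -0.03 (interval -0.35 to 0.28, limma adjusted p = 0.970, exact permutation p = 0.881). Arrays numbered 1 to 3 gave 0.17 for Gli1 (interval -0.13 to 0.48). Arrays numbered 4 and 5 gave -0.34 (interval -0.63 to -0.04).

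The gap between these differences of Gli1 was tested as an interaction of group with the sets of arrays, a test chosen after the values were seen. The differences were apart by -0.51 (SE 0.21), with an unadjusted limma p of 0.0338, a level that 2.53% of all genes reached. Adjusted over all probe sets the limma p was 1.0. By limma 0 genes passed this test of interaction, and 505 genes lay under 0.05 unadjusted. Of the 9 members, 6 had a lower difference in the arrays numbered 4 and 5 than in the others. With 2 embryos per group among the arrays numbered 4 and 5, the readings of Gli1 there rest on few animals.

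Hhip (probe set 10579894), a membrane protein that binds and sequesters Hedgehog ligands, had the largest difference among the members. Controls 1 to 5 read 6.76, 6.97, 6.44, 6.68 and 6.85, and mutants 1 to 5 read 6.57, 6.65, 6.24, 6.74 and 6.46. The mutant was lower than the control of the same number in 4 of 5 cases, yet control 3 lay below 4 of the 5 mutants. The log2 difference of Hhip was -0.21 (SE 0.11), with an interval of -0.45 to 0.04. The limma adjusted p was 0.663 and the exact permutation p was 0.127. Leaving out 1 array at a time moved the difference of Hhip between -0.28 and -0.14.

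**Figure D2:**
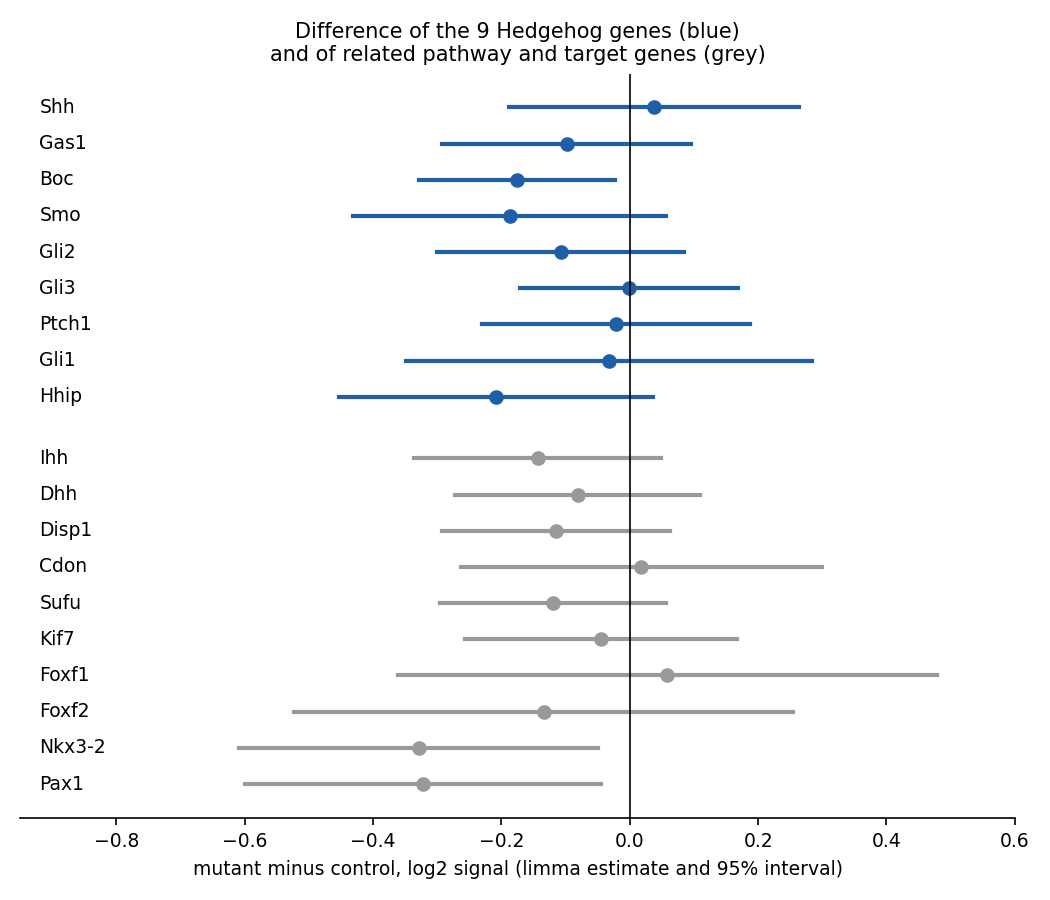
Mutant minus control difference in log2 signal (horizontal axis) with its 95% interval from limma, for the 9 Hedgehog genes in blue and in grey for Ihh, Dhh, Disp1, Cdon, Sufu, Kif7, Foxf1, Foxf2, Nkx3-2 and Pax1. Among the blue intervals that of Boc (-0.33 to -0.02) leaves out 0, and among the grey ones those of Nkx3-2 and Pax1 do, while 0 of the genes shown passed after adjustment.

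The response genes as a set were compared with the ligand and co-receptors, as a description with no test. For each array, each gene's log2 signal was taken relative to its control mean and averaged over the genes of a set. The response genes (Ptch1, Gli1 and Hhip) averaged -0.09 ± 0.20 (SD, n = 5) in the mutants, against a control SD of 0.15. The ligand and co-receptors (Shh, Gas1 and Boc) averaged -0.08 ± 0.05 in the mutants (SD, n = 5), with a control SD of 0.07. In this set Shh (0.04) and Boc (-0.18) differed in sign and correlated at r = -0.85 over the arrays. Their deviations partly cancel in the mean, so its small SD is not the spread of a common shift. The transducers (Smo, Gli2 and Gli3) averaged -0.10 ± 0.17 (SD, n = 5). Leaving out 1 array moved the mean of the ligand and co-receptors between -0.11 and -0.06. Single arrays moved the means of the response genes and of the transducers by over 1.5 times. That of the response genes was -0.16 without mutant 2, -0.05 without mutant 3, -0.04 without mutant 5 and -0.03 without control 2, while arrays numbered 1 to 3 gave -0.0077 and arrays numbered 4 and 5 gave -0.21. That of the transducers was -0.03 without mutant 5 and -0.06 without control 2, and it was -0.03 and -0.20 in the same sets of arrays. Response genes minus ligand and co-receptors gave -0.01 ± 0.18 in the mutants and had a control SD of 0.13 (n = 5 each), a difference smaller than the spread among arrays.

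**Figure D3:**
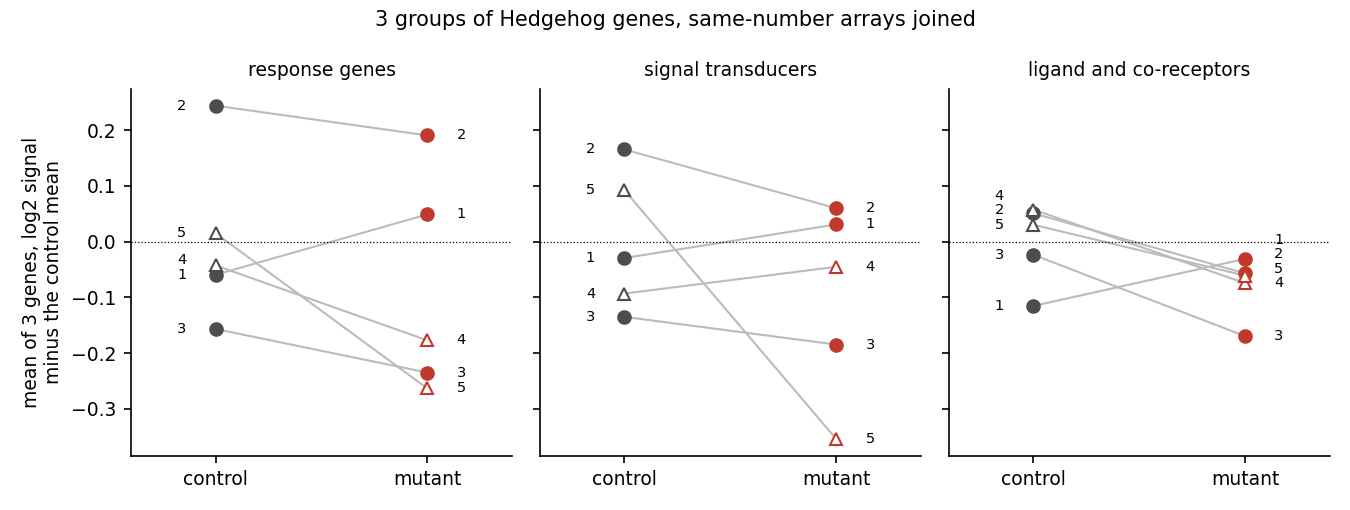
Mean of the 3 genes of each set in each embryo, as log2 signal minus the control mean (vertical axis), with controls at left and mutants at right grey lines joining arrays of the same number (printed beside the points), circles for arrays numbered 1 to 3 and triangles for arrays numbered 4 and 5. The response genes in mutants run from -0.26 to 0.19 and those in controls from -0.16 to 0.24, and mutant 5 is the lowest point among the transducers at -0.35.

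Over the 9 members the median log2 difference was -0.10 and 8 of 9 were below 0, beside a median of -0.0021 over all genes, of which 50.9% were below 0. Between embryos 28 of the 36 pairs of members had a Pearson r above 0, though only 2 pairs passed adjustment by Pearson's r. The members therefore cannot be counted as 9 separate readings of a shift. Without mutant 5 the median was -0.05 with 7 of 9 below 0, and within the arrays numbered 1 to 3 it was -0.01 with 5 of 9 below 0. Within the arrays numbered 4 and 5 it was -0.17 with 8 of 9 below 0, and without mutant 2 it was -0.14. Markers of the periotic mesenchyme were read beside these. Of 14 such markers 11 were lower in the mutants, with a median log2 difference of -0.09, and 7 were lower without mutant 5. Their mean per array, relative to all 10 arrays, ran from -0.32 to 0.09 in the mutants and from -0.09 to 0.13 in the controls, and mutant 5 was lowest. The part of the mesenchyme markers in the readings of the Hedgehog genes was not tested.

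Deviations of the Hedgehog genes from their group means were correlated over the 10 arrays for all 36 pairs. Of the 28 pairs without Shh, 27 had a Pearson r above 0, and of the 8 pairs with Shh, 7 had one below 0. Among all other genes, 42.7% correlated as highly with Gli2 as Gas1 did, and 36.2% as highly with Gli1 as Gas1 did. With Shh, 45.3% lay as far below 0 as Gas1 did. The share was smaller for other pairs, such as 1.39% for Gli1 with Ptch1. These shares concern the size of r, and the share of all genes with the same sign was not counted. Whether the signs set the members apart from other genes is thus not shown. With Benjamini-Hochberg adjustment over the 36 pairs, 2 passed by Pearson's r and 1 by Spearman's rho, in permutation tests with 100000 resamples. The signs are a description, and several turned with the arrays used: Shh with Gli1 went from -0.12 to 0.13 and Shh with Gli2 from -0.39 to 0.03 without control 1 and mutant 5.

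Smo and Gli3 were the closest pair by Pearson's r, at 0.86 (permutation p = 0.00172, adjusted 0.0310), with a rho of 0.81 (p = 0.00706, adjusted 0.0847 by permutation). Without the 2 arrays farthest from the median of Smo, mutant 5 and control 2, r was 0.79, and among the 6 arrays numbered 1 to 3 it was 0.78. Of all other genes, 0.752% correlated as highly with Smo as Gli3 did. Gli3 and Hhip had a rho of 0.93 (permutation p = 0.00033, adjusted 0.0119) and an r of 0.78 (permutation p = 0.00727, adjusted 0.0654). Without mutants 2 and 5 the r of Gli3 and Hhip was 0.98.

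Shh and Boc, ligand and co-receptor, ran opposite to each other. Their r was -0.85 (permutation p = 0.00142, adjusted 0.0310) and their rho -0.84 (permutation p = 0.00366, adjusted 0.0659). Without control 1 and mutant 5 the r of Shh and Boc was -0.71, and among the arrays numbered 1 to 3 it was -0.79. Of all other genes, 0.918% correlated with Shh as far below 0. Set apart from the rest, control 1 had the lowest Shh and the highest Boc, and mutant 5 the highest Shh and the lowest Boc.

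Ptch1 and Gli1, the most used readouts of the pathway, had an r of 0.79 (permutation p = 0.00723, adjusted 0.0654) and a rho of 0.61 (permutation p = 0.0671, adjusted 0.302). Without mutant 2 and control 2, the highest arrays for both genes, r was 0.48, so much of this relation rests on those embryos. Hhip was less close to Ptch1 (r = 0.41, adjusted p = 0.356 by permutation) and to Gli1 (r = 0.28, adjusted p = 0.526 by permutation). The arrays numbered 4 and 5 are 4 in all, too few for a value of their own.

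**Figure D4:**
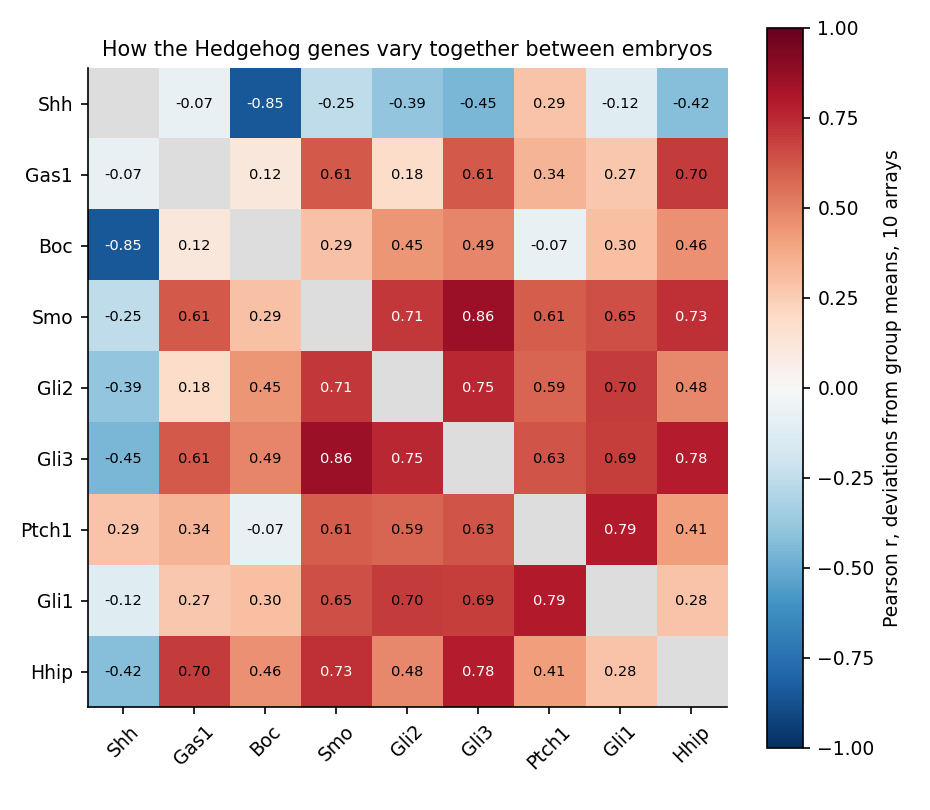
Pearson r between each pair of Hedgehog genes over the 10 arrays, after each gene's group mean was removed, from -1 (blue) to 1 (red). Shh stands apart at -0.85 with Boc, and Smo and Gli3 reach 0.86.

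The genes most like the response genes over the arrays were looked up outside the pathway. Among 9821 other genes brighter than the median probe set, those with the highest r to Ptch1 were Mn1 (0.96), Patz1 (0.96) and Tmem222 (0.95). For Gli1 they were Vill (0.97), Aars2 (0.97) and Nprl3 (0.96). For Hhip, among 9822 genes, they were Plekhm1, Arhgef10 and Srrm2, each at 0.93. These values are over 10 arrays and were picked as the highest of many, so they carry no p. The log2 differences of these 9 genes lay between -0.17 for Plekhm1 and 0.10 for Vill, and 0 of them passed.

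For the other ligands and the genes of ligand release, 7 of 13 were lower in the mutants and 6 higher, with a median log2 difference of -0.01, and 0 passed. Without mutant 5 the median was 0.06 with 9 of 13 higher, while arrays numbered 1 to 3 gave 0.07 and arrays numbered 4 and 5 gave -0.08. Ihh, the ligand of growing cartilage, had a log2 difference of -0.14 ± 0.09 (SE), and Dhh, the ligand of Schwann cells, had -0.08 ± 0.09 (SE). Disp1, which lets the lipid-bearing ligand leave the cell, had -0.12 ± 0.08 (SE). Adam17, a membrane protease, had the smallest p of the list, with a log2 difference of 0.09 and a limma adjusted p of 0.697. Shh, Ihh and Dhh together thus gave differences from -0.14 to 0.04.

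Other receptors and membrane regulators were measured for 11 of 14 listed genes, of which 8 were higher and 3 lower, with 0 past the threshold. Cdon, the partner of Boc in binding Shh, had a log2 difference of 0.02 ± 0.13 (SE). Mosmo, a regulator of Smo at the cilium, had 0.11 ± 0.06 (SE). Efcab7, part of the complex that relays Smo signalling, had 0.40 ± 0.22 (SE), with an SD of 0.61 in the controls and 0.03 in the mutants.

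Inside the cell, Sufu, which holds Gli proteins in check, had a log2 difference of -0.12 ± 0.08 (SE), and Kif7, a kinesin of the cilium tip, had -0.04 ± 0.10 (SE). Of the 24 measured intracellular regulators 15 were higher and 9 lower, with a median of 0.03. The genes of smallest p in that list were Cul3 and Cul1, scaffolds of the ubiquitin ligases that act on Gli proteins. Cul3 had a log2 difference of 0.14 and Cul1 had one of 0.11. Both missed the threshold, with limma adjusted p values of 0.575 and 0.612.

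Genes of transport in the primary cilium, the organelle through which Smo signals, were mostly higher. Of the 32 measured genes 28 were higher in the mutants and 4 lower, with a median log2 difference of 0.11, and 0 passed after adjustment. At an unadjusted limma p under 0.05 there were 6, all of them higher, where 4.70% of all genes were. Ift81 and Ift74, which form a tubulin-binding pair in the transport complex, had log2 differences of 0.25 ± 0.08 and 0.19 ± 0.07 (SE), with limma adjusted p values of 0.569 each. Ift74 stood at 8.17 ± 0.06 among mutants and 7.97 ± 0.09 among controls (SD, n = 5 each), and its groups overlapped. The list median was 0.12 without mutant 5, 0.13 within the arrays numbered 1 to 3 and 0.07 within those numbered 4 and 5. Ganglion neuron markers were higher too, at 15 of 15 with a median of 0.32 and 0 past the threshold. With 1 array left out their median ran from 0.17 to 0.45. The part of these markers in the cilium readings was not tested.

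Genes that Hedgehog signalling is known to drive in mesenchyme held 0 members past the threshold. Of the 24 measured targets 14 were lower and 10 higher in the mutants, with a median log2 difference of -0.09. The median was 0.00021 without mutant 5 and -0.11 without mutant 2. It was -0.02 within the arrays numbered 1 to 3 and -0.17, with 21 lower, within those numbered 4 and 5. At an unadjusted limma p under 0.05 there were 3, all of them lower, where 3.11% of all genes were. Nkx3-2 and Pax1, transcription factors that Shh induces in the cartilage precursors of the sclerotome, stood lowest in p. Nkx3-2 stood at 6.76 ± 0.20 among mutants and 7.09 ± 0.26 among controls (SD, n = 5 each), and Pax1 at 7.95 ± 0.22 and 8.27 ± 0.25. Their log2 differences were -0.33 and -0.32, with exact permutation p values of 0.0635 for each and limma adjusted p values of 0.583 for each. Foxf1 and Foxf2, Gli targets in mesenchyme of many organs, had differences of 0.06 ± 0.19 and -0.13 ± 0.18 (SE). Cartilage markers were lower beside Nkx3-2 and Pax1, at 18 of 19 with a median of -0.27, among them Col2a1 at -0.53 (limma adjusted p = 0.569). With 1 array left out the cartilage median ran from -0.41 to -0.17. The part of these markers in the readings of the targets was not tested.

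**Figure D5:**
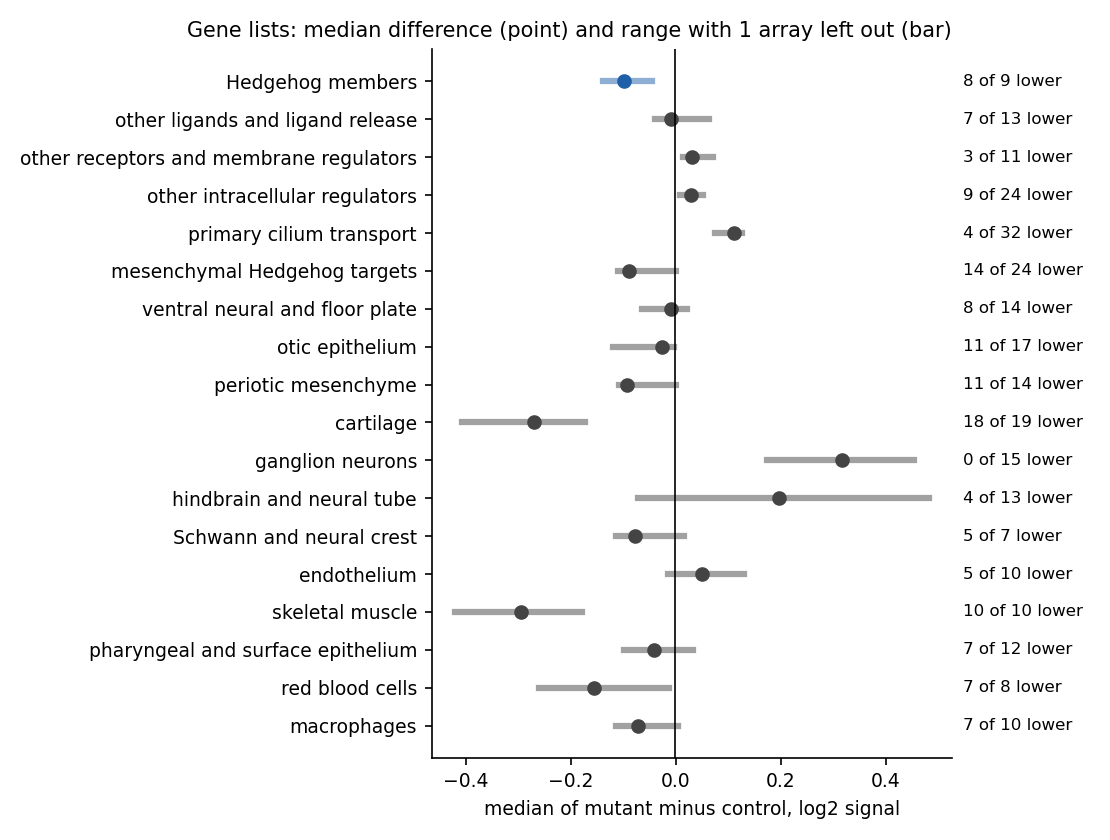
Median mutant minus control difference in log2 signal (horizontal axis) for the Hedgehog genes in blue, for related pathway lists and for cell type markers in grey, with a bar for the range of the median when 1 array is left out and the count of genes below 0 at right. The vertical line is the median over all genes (-0.0021), and the Hedgehog genes at -0.10 lie nearer to it than the cartilage (-0.27) and ganglion neuron (0.32) markers.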

How the data were processed

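The deposited values are log2 signals of 10 arrays. The authors used RMA and Affymetrix Expression Console (version 1.1), per the submitters' processing notes. RMA subtracts background, gives every array the same distribution and sums up each probe set, so a shift shared by most genes is removed. The probe file version and genome build are not given in the sources used here. Arrays carry no read depth, and their number limits precision.

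Of 35557 probe sets, 21789 had 1 gene symbol and were fitted, 1621 had several and 12147 were unlisted. Names of 21698 matched the RefSeq gene table of GRCm38.p6, and 91 kept the platform's name. The fit was limma 3.58.1 in R 4.3.3 (two-sided, Benjamini-Hochberg adjustment), tested on simulated data. The members, lists and tests were chosen with earlier results of these data known. Genes named are Tbx1, the members, a set of pathway genes, the 2 of smallest p in a list and the 3 most like each response gene. Alternatives were other variance settings, further quantile normalization, a filter on dim probe sets, array weights, sex, the replicate block, subsets of arrays and leaving out each array. The interaction test and the list medians under these alternatives were added after the data were seen.

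Deviations of mutants and controls of the same number correlated at 0.122 to 0.247 over all probe sets. Other combinations gave -0.392 to 0.382, with mutant 5 and control 4 the highest. Those of the same number were thus all above 0, while the other combinations lay on both sides of 0 and reached higher. Whether the numbers mark pairs was not tested. The main fit left the numbers out. The replicate block and the same-number comparisons use them, though the labels do not call them pairs.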

Additional observations from a re-analysis of the deposited data

Results flagged for a closer look

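Dixon's test was run on 162 groups of 5 arrays, for the named genes, the sets of Hedgehog genes and the means of the other gene lists, and 6 values stood far from the other 4 of their group. Chance alone marks about 1 in 20 groups. The Hedgehog genes and their sets gave 0. Mutant 5 stood apart in its averaged hindbrain and neural tube markers, at 1.26 above the mean of all arrays, and for the mean of the macrophage markers, at -0.40. It also stood apart for Pdgfra, a receptor of mesenchymal cells, with a log2 signal of 11.30, and for Pf4, a gene of platelets and macrophages, with 6.21. Control 1 stood apart for the mean of the endothelium markers, at 0.17. Control 2 stood apart for Tmem222, with a log2 signal of 8.73.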

How the results depend on the processing

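In 18 other settings the number of Hedgehog members past the threshold was 0, and the mean difference of each set of members stayed below 0. The number of all genes past the threshold was 2 and became 0 with only probe sets above the median mean, 1 in only the arrays numbered 1 to 3 and 0 in only those numbered 4 and 5. In the fit with the replicate block, 0 members passed, the smallest limma adjusted p was 0.400 (Boc) and Hhip had one of 0.460. Signs of near-zero differences turned. With array weights the log2 difference was -0.0077 for Shh, 0.0067 for Ptch1, 0.049 for Gli1 and 0.031 for Gli3. In only the arrays numbered 1 to 3 it was 0.041 for Ptch1, 0.17 for Gli1 and 0.052 for Gli3, and with sex as a covariate 0.0059 for Gli3. Leaving out 1 array at a time, the range was -0.033 to 0.093 for Shh, -0.094 to 0.034 for Ptch1, -0.14 to 0.067 for Gli1 and -0.052 to 0.050 for Gli3. The cause of these turns was not tested. With 1 array left out, Boc stayed between -0.21 and -0.14, Hhip between -0.28 and -0.14 and Smo between -0.24 and -0.10. In the same fits Gas1 stayed between -0.15 and -0.05 and Gli2 between -0.16 and -0.05. The subsets of arrays went beyond these ranges. Those numbered 4 and 5 gave -0.30 for Smo, -0.23 for Gas1 and -0.22 for Gli2. Those numbered 1 to 3 gave -0.01 for Gas1 and -0.03 for Gli2. The filter on the median mean left out Shh and Hhip, so the means of their sets have no value there. The lowest-mean probe set was not run, since each member has 1.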

Other observations

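Genes of the ventral neural tube and floor plate, a source of Shh beside the ear, were measured for 14 of 16 listed members, and 0 passed. Of these 14 genes 8 were lower and 6 higher in the mutants, with a median log2 difference of -0.01. Without mutant 5 the median was -0.06 with 3 of 14 higher, and in the arrays numbered 4 and 5 it was 0.08 with 11 of 14 higher. Foxa2, the floor plate factor that drives Shh, had a difference of 0.03 ± 0.07 (SE), and Nkx2-2, which high Shh induces, had -0.05 ± 0.10 (SE). Sim1, a factor of ventral interneurons, had 0.30 with a limma adjusted p of 0.583. Mutant 5, which had the highest Shh of all arrays, was highest for these genes too, at 0.28 over the average of the 10 arrays.

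Skeletal muscle markers, a tissue outside the Hedgehog readouts, were lower in the mutants for 10 of 10 genes with a median log2 difference of -0.30. Among them were Msc (-0.42) and Myod1 (-0.34), and 0 passed. With 1 array left out the muscle median ran from -0.42 to -0.18. Blood vessel markers were split, with 5 of 10 lower, Ramp2 at -0.22 and Kdr at 0.19. Red blood cell markers had a median of -0.16 with 7 of 8 lower, which was -0.012 with 5 of 8 lower without control 5 and -0.26 without control 2. Macrophage markers had a median of -0.07 with 7 of 10 lower, which was 0.0032 with 5 of 10 lower without mutant 5 and -0.11 without mutant 2.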
